A study of Mus musculus with 4 samples.

Results

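The Notch pathway genes examined here are 10 named genes, taken by symbol: the receptors Notch1, Notch2, Notch3 and Notch4, the ligands Dll1, Dll4, Jag1 and Jag2, the DNA-binding mediator Rbpj and the target gene Hes1. All 10 were found among the 21887 protein-coding genes on assembled chromosomes of the mouse assembly GRCm38.p6. Occupancy of the homeodomain factor NKX2.2 at these genes was read from ChIP-seq of alphaTC6, a mouse line of glucagon-producing alpha cells. Its genotype is given as wild-type. There were 2 ChIP libraries and 2 input libraries, all from the same line, with no treatment named in the labels. The outcome was 1 deposited file of 7384 summits, made for the series as a whole, of which 7380 lay on assembled chromosomes. A summit is the base of strongest enrichment in a peak. Its score is the authors' own and is taken here as the −log10 of the peak's q-value. The list gives no value per library, so depth is unknown, no value below has a replicate error and no test between groups was possible. The alpha cell identity of the line cannot be checked from summit positions.

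Notch receptors are membrane proteins that are cut when a ligand on a neighbouring cell binds them. The freed intracellular domain enters the nucleus and joins RBPJ and a Mastermind coactivator on DNA, where RBPJ otherwise sits with corepressors. In the pancreas the target HES1 represses Neurog3, the gene that starts endocrine differentiation, so that Notch signalling keeps progenitors from becoming islet cells. NKX2.2 acts in islet cells, among others, and is known to work with TLE (Groucho) corepressors.

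NKX2.2 summits lay inside Rbpj and Notch2 and close to Hes1. Rbpj held 2 summits, 1 of them 47 bases upstream of an annotated start site. Hes1 had a summit 1028 bases from the gene. None of the 4 ligand genes among the members had a summit inside it or within 10 kb. In all, 3 of 10 members had a summit in the gene or within 10 kb, against 25.8% of all protein-coding genes (5654 of 21887, 95% Wilson interval 25.3% to 26.4%, counting error only). The members' share was thus close to the background.

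The sequence at the Rbpj summit is shown first, because this was the only member with a summit in a RefSeq promoter window (250 bases before to 50 after a start site). Of the 10 members, 9 were in the promoter table, with 11 windows. Among all 27025 genes of that table, 5.62% had a summit in such a window. Beside Rbpj stand the promoters of 3 neighbouring genes, which hold the summits closest to Dll4 and Notch1 and 1 of the summits near Dll1. Each is given 5′ to 3′ on the strand of its gene, from RefSeq (GRCm38.p6). Capitals mark CACTT, the reverse complement of the NKX2-2 core AAGTG, and TGGGAA or its reverse complement TTCCCA, the letters bound by RBPJ.
Rbpj, chr5:53590096-53590375, plus strand, with the summit at base 204 of the run: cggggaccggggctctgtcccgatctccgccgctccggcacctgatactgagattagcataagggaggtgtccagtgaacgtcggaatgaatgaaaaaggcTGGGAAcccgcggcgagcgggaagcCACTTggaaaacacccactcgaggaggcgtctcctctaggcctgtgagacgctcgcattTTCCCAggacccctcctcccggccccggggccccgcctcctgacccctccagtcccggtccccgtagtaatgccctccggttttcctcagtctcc
Fam120b (near Dll1), chr17:15395972-15396172, plus strand, summit at base 101: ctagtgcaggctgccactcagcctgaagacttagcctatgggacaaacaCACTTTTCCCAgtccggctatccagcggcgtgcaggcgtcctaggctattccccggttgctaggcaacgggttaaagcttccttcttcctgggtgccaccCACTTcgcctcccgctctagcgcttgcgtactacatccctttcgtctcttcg
Chac1 (near Dll4), chr2:119351144-119351271, plus strand, summit at base 101: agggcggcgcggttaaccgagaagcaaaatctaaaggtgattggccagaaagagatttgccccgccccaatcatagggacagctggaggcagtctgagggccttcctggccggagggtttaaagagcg
Sec16a (near Notch1), chr2:26445240-26445440, minus strand, summit at base 101: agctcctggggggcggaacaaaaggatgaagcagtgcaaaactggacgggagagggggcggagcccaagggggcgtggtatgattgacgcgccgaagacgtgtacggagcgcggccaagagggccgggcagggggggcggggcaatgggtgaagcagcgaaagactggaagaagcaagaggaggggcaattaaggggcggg

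Motifs were searched on both strands of each 300-base window, and a match is only a description of letters. In the Rbpj window the NKX2-2 core occurred once, ending 73 bases upstream of the summit. TGGGAA had 2 matches, one on each strand, and the nearer match ended 13 bases upstream of the summit. The gene for RBPJ carries the letters of RBPJ's own motif beside the NKX2.2 summit. The KLF core CACCC occurred once, ending 62 bases upstream of the summit, and the longer NKX2-2 form TNAAGTG and the E-box CACGTG had no match. In the Fam120b window, CACTT and TTCCCA lay end to end, the first ending 47 and the second 41 bases upstream of the summit. A second CACTT began 49 bases downstream of it and overlapped a CACCC match by 1 base. The whole Fam120b window held 4 AAGTG matches, of which 2 lie 133 and 150 bases downstream of the summit and outside the run shown, and 3 CACCC matches. The Chac1 window held none of these motifs, and the Sec16a window held only a CACCC.

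These short motifs are common. AAGTG was in 46.4% of all 32851 promoter windows and in 45.1% of the 1624 windows with a summit. For TGGGAA the shares were 25.6% and 23.1%, for CACCC 57.5% and 63.4%, for TNAAGTG 11.5% and 9.05%, and for CACGTG 7.15% and 12.2%. TNAAGTG contains AAGTG, so these shares overlap. Among the 9 members with a window, AAGTG was found in Rbpj, Dll1 and Notch3, and TGGGAA in Rbpj alone. The G+C content of the members' 11 windows ran from 55.7% at Jag1 to 86.0% at Jag2 with a median of 64.7%, against a median of 52.7% in all windows and 61.7% in windows with a summit.

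**Figure D1:**
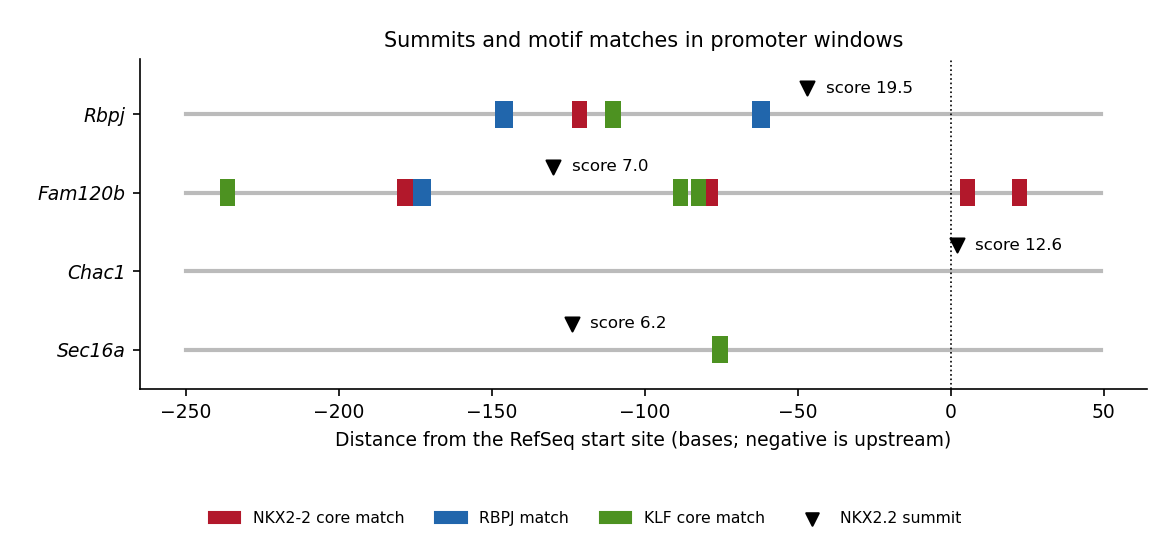
Motif matches (coloured blocks) and the NKX2.2 summit (triangle, with its score) in the promoter windows of Rbpj and 3 genes that neighbour Notch1, Dll1 and Dll4, by distance from a RefSeq start site in bases. The Rbpj summit lies 47 bases upstream of the start, next to an RBPJ match, and the Chac1 summit lies 2 bases downstream of its start.

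Rbpj (gene ID 19664) encodes the factor through which all 4 receptors act on DNA. It spans chr5:53555779-53657445, 102 kb on the plus strand. The promoter summit, at position 53590299, had a score of 19.5 and ranked 2674 of 7380 placed summits. It lies inside the annotated gene, 34520 bases from the nearest end of the gene body, because the annotation also holds a start further upstream. It fell in a second listed promoter window too, 187 bases before that start (position 53590486). The other summit, at 53607431, had a score of 28.5 (rank 1768), higher than 75.9% of placed summits, and lay 16.9 kb downstream of the nearer listed start. Whether it is exonic or intronic was not resolved, since the gene table holds no exons. Rbpj was the only one of the 10 genes with more than 1 summit inside it. Among all protein-coding genes, 229 had more than 2 summits inside and 439 others had 2.

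Hes1 (gene ID 15205) encodes the basic helix-loop-helix repressor that carries out much of the Notch response. The gene is short, at chr16:30065357-30067796, and no other protein-coding gene lies within 50 kb of it. Its nearer summit, at position 30064329, had a score of 13.5 (rank 3782), just below the list's median of 13.7. A second summit, at position 30029708 and 35.6 kb from the gene on the same side, scored 19.8 (rank 2617). Hes1 was the nearest protein-coding gene for both. Among genes with a summit on their chromosome, 19.4% had one nearer than Hes1 did.

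The receptors differed in where their summits lay. Notch2 (gene ID 18129, chr3:98013538-98150367) had 1 summit within its body, at 98106827 and 93.3 kb downstream of its start, with a score of 16.2 (rank 3172). A second lay 48.1 kb beyond its end at 98198492 with a score of 59.3 (rank 706), but Reg4, at 23.6 kb, and 1 other gene were nearer to it. Notch2 and Notch1 are the receptors best known from the developing pancreas.

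Notch1 (gene ID 18128, chr2:26457902-26503822) had its nearest summit 12.6 kb beyond its end, at 26445340. That summit scored 6.17 (rank 6217) and lay 124 bases upstream of a start of Sec16a, the gene for a protein of the secretory pathway. Notch3 (gene ID 18131, chr17:32120820-32166896) had a summit 13.0 kb before its start at 32179893. Its score was 30.2 (rank 1645), and Ephx3, an epoxide hydrolase gene, was nearer at 3.88 kb.

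Notch4 (gene ID 18132, chr17:34564286-34588543) had the highest-scoring summit within 50 kb of any member, 76.5 (rank 508), at 34604136. This summit lay 15.6 kb beyond the end of Notch4 and 59 bases outside Agpat1, a gene of phospholipid synthesis. In this gene-dense region 9 other protein-coding genes lay within 50 kb of Notch4, and 7 were nearer to the summit than Notch4 was. None of the summits within 50 kb of Notch1, Notch3 and Notch4 had the receptor as its nearest gene.

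Within 50 kb, the 4 ligand genes had 3 summits and the 4 receptor genes 5, a difference that was not tested. Dll1 (gene ID 13388, chr17:15367354-15376932), the Delta ligand of endocrine progenitors, had 2 within 50 kb. The nearer one lay 10.6 kb beyond its end at 15356794, just outside the 10 kb limit, with a score of 9.10 (rank 5132), and Dll1 was the nearest gene to it. The other, at 15396072 and 19.1 kb before the start of Dll1, scored 7.03 (rank 5904) and lay 130 bases upstream of a start of Fam120b. Both scores were below the list's median.

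Dll4 (gene ID 54485, chr2:119325784-119335666), a Delta ligand best known from blood vessels, had a single summit within 50 kb, at 119351244 and 15.6 kb beyond its end. It scored 12.6 (rank 4004) and lay 2 bases downstream of the start of Chac1, a glutathione-degrading enzyme of the stress response. The Jagged ligand genes had none within 50 kb. The nearest summit to Jag2 (gene ID 16450, chr12:112907803-112929812) was 99.0 kb away, scored 4.73 and lay 173 bases from Clba1. Jag1 (gene ID 16449, chr2:137081451-137116520) was farthest of all, with its nearest summit 365 kb away at position 136716322 (score 10.2), and 77.8% of genes had one nearer. A missing summit shows only that no peak was called, at a depth that is unknown.

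**Figure D2:**
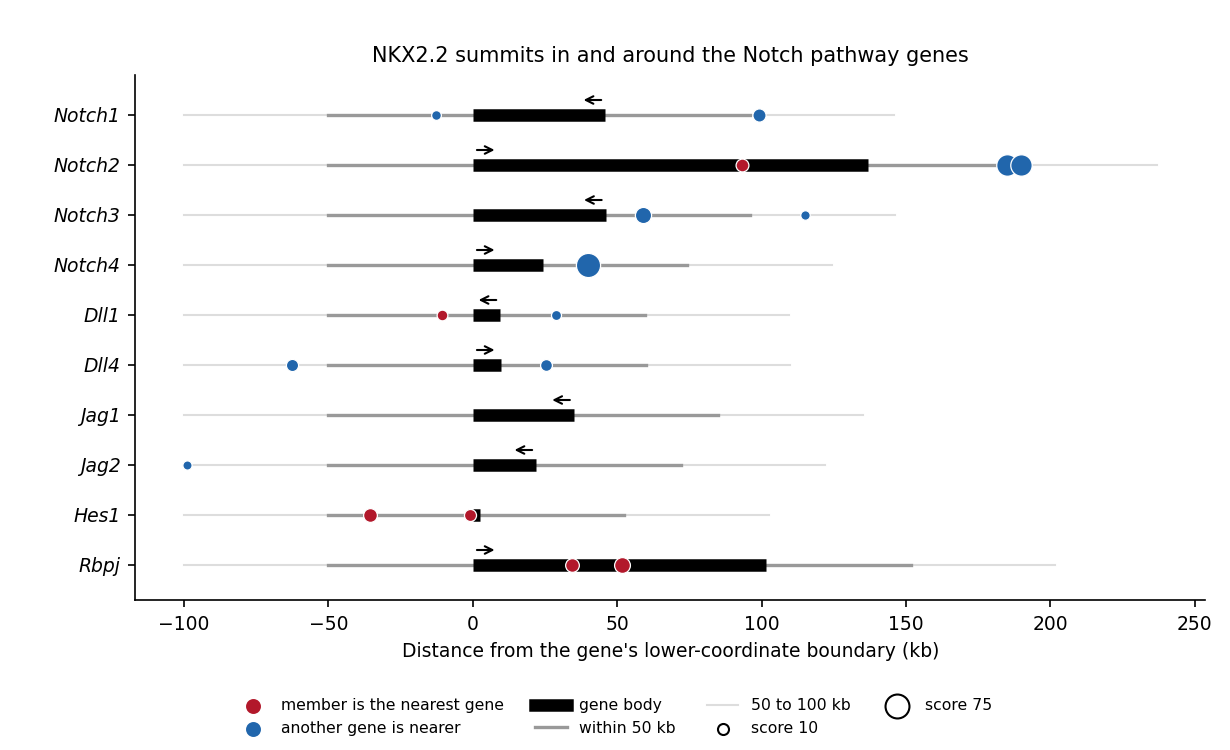
Summits (circles, area growing with the score) around each Notch pathway gene, by distance in kb from the gene's lower-coordinate boundary, with the gene body as a black bar and an arrow for its direction where the promoter table gives it. Red circles, for which the member is the nearest gene, occur at Notch2, Dll1, Hes1 and Rbpj, and Jag1 has no summit within 100 kb.

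Counted together, 12 summits lay in or within 50 kb of a member, at 8 of the 10 genes. Of all protein-coding genes, 43.8% had a summit that close. The member was the nearest gene for 6 of the 12, at Rbpj (2), Hes1 (2), Notch2 (1) and Dll1 (1). For the other 6 another gene was nearer, and in 3 of these the summit fell in that gene's promoter window. The pattern at 50 kb therefore counts summits at neighbouring genes as well. In the gene body alone 2 of 10 members had a summit, against 13.4% of all genes. Just outside the 50 kb limit lay a summit 53.0 kb beyond the end of Notch2 (score 58.6) and another 53.1 kb before the start of Notch1 (score 17.5).

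Longer genes had summits more often, so the members' lengths matter for these counts. Of the 2 members of 50 to 150 kb, Notch2 and Rbpj, both had a summit within 10 kb, against 33.9% of genes of that length. Of the 5 members of 10 to 50 kb, Notch1, Notch3, Notch4, Jag1 and Jag2, none had one, against 27.2%. Of the 3 members under 10 kb, Hes1 alone had one, against 17.3%. With so few members in a class these counts are descriptions.

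**Figure D3:**
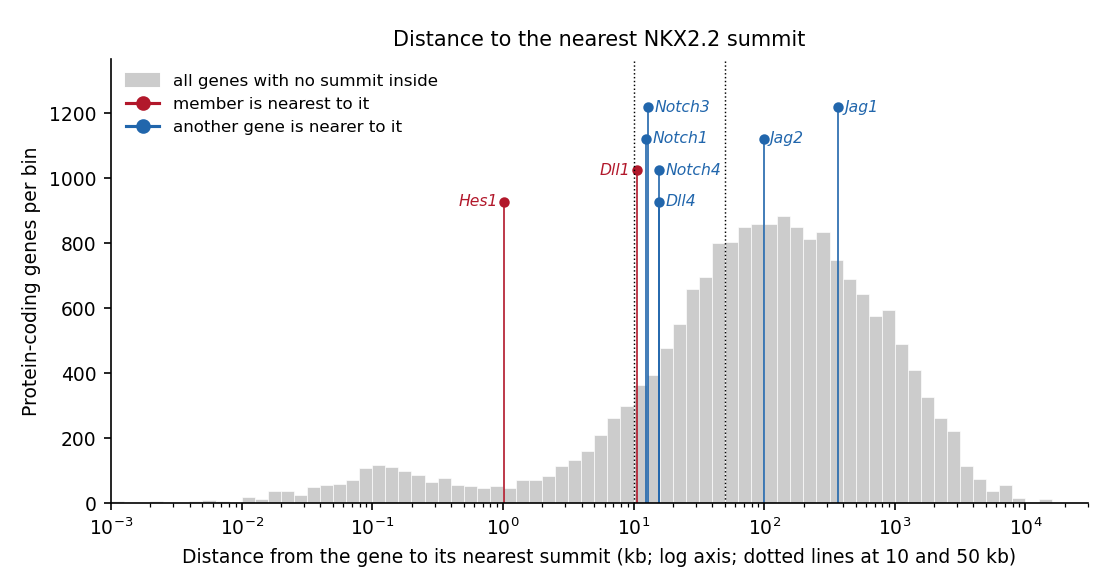
Distance from each protein-coding gene with no summit inside it to its nearest summit (grey bars, kb, log axis), with the 8 such Notch pathway genes marked. Hes1 stands at 1.03 kb, 5 members lie between 10.6 and 15.6 kb, and Jag2 and Jag1 lie beyond 50 kb.

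None of the members' summits was among the strongest of the list. The 4 summits in or within 10 kb of a member scored from 13.5 to 28.5 with a median of 17.9, against a median of 13.7 over all placed summits, whose middle 50% ran from 7.98 to 27.7. The 6 summits within 50 kb that had a member as nearest gene scored from 9.10 to 28.5. The 6 with another gene nearer spread more widely, from 6.17 to 76.5, and held the highest and the lowest of the 12. Scores depend on depth as well as on enrichment and are the peaks' own values.

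**Figure D4:**
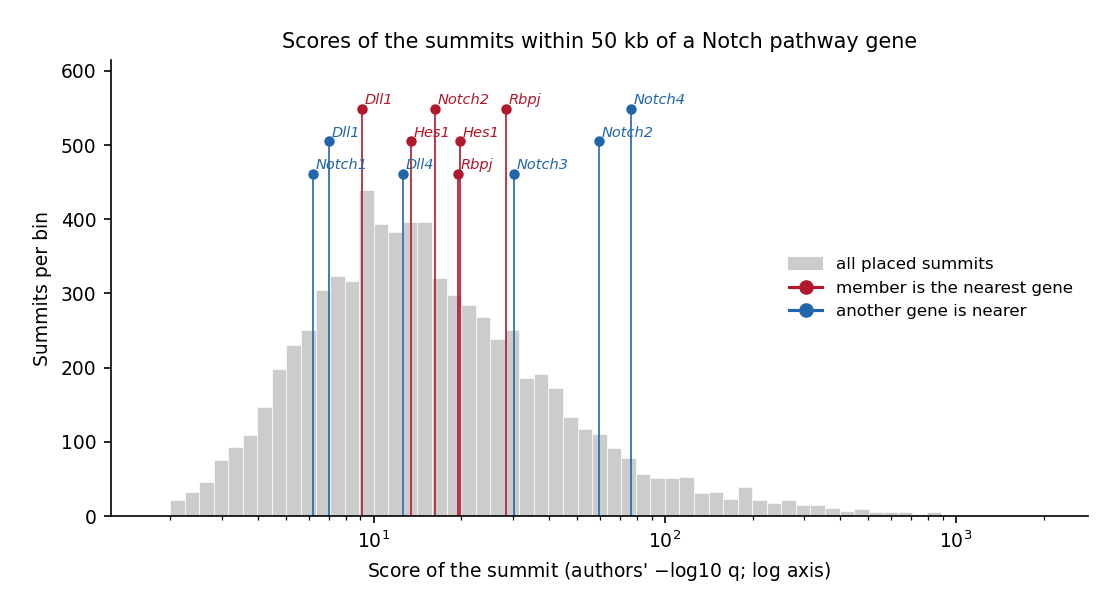
Scores of the 12 summits within 50 kb of a Notch pathway gene (lines, labelled by gene), on the distribution of all placed summits (grey bars, log axis). Those with the member as nearest gene (red) lie between 9.10 and 28.5, in the middle of the distribution, while the summits near Notch4 and Notch2 that are closer to another gene (blue) reach 76.5 and 59.3.

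Other genes linked to the pathway were then counted, as 8 lists by role with 70 genes in all. Of these, 28 had a summit inside or within 10 kb, a share of 40.0%, beside the 25.8% of all protein-coding genes. The share was highest among the corepressors that act with RBPJ or HES proteins, at 9 of 12 genes. It was 4 of 8 among coactivators of the Notch complex and 4 of 9 among genes for the cleavage of receptors. Of other ligands 2 of 6 had a summit, of sugar transferases that modify the receptors 1 of 5, and of ubiquitin and trafficking regulators 4 of 14. In the list of other HES and HEY genes, which also holds the Notch feedback gene Nrarp, 3 of 9 had one. The share was lowest among genes of endocrine against progenitor or acinar fate, at 1 of 7. Neither the differences between the lists nor those from all protein-coding genes were tested. The lists were chosen with earlier results of these data known, so a share above 25.8% cannot be read as an excess at pathway genes. Gene length also differs among the lists. The median length was 75.7 kb for the corepressors and 29.7 kb for the 10 members, and 44.3% of all genes of 150 kb or more had a summit.

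In the corepressor list, Ctbp2, whose product binds short peptide motifs, had 2 summits, the higher with a score of 58.0 (rank 726) at chromosome 7 position 133011765. Spen, whose product joins RBPJ directly to repressive complexes, had 1 with a score of 23.0, 7.37 kb from the gene.

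Tle4 had a summit inside the gene with a score of 32.0, and Tle3 had 2, with scores of 18.7 and 28.5. The 18.7 summit of Tle3 lay 110 bases downstream of its start. When each summit was given only to its nearest gene, 8 of the 12 corepressor genes had one, beside 18.9% of all protein-coding genes. The gene lost was Tle2, which has no summit inside it and whose highest summit within 10 kb lies nearest to Tle6.

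Among coactivators, Maml3, a Mastermind gene of 418 kb, held 7 summits with scores from 5.32 to 89.7 (rank 421), or 1.67 per 100 kb. The nearest gene to the Snw1 summit (score 21.2) was Slirp, 4 bases from that gene's boundary. In the cleavage list Psen2, a presenilin gene of the γ-secretase protease, had a summit with a score of 31.7 inside the gene. Dner, an atypical ligand gene, had 3 summits, the highest with a score of 29.5 and 1299 bases downstream of its start. The summits near Dll3 (score 34.9) and Poglut1 (score 35.7) lay closer to Timm50 and Timmdc1.

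The strongest summit of any gene in the lists stood near Hes2, a relative of Hes1. It scored 384 and ranked 49 of 7380, at chromosome 4 position 152168246, 5777 bases from Hes2, which was the nearest protein-coding gene. Hes2 had no other summit within 50 kb. Hes5 had a summit with a score of 5.69 that lay 184 bases from the boundary of Pank4.

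**Figure D5:**
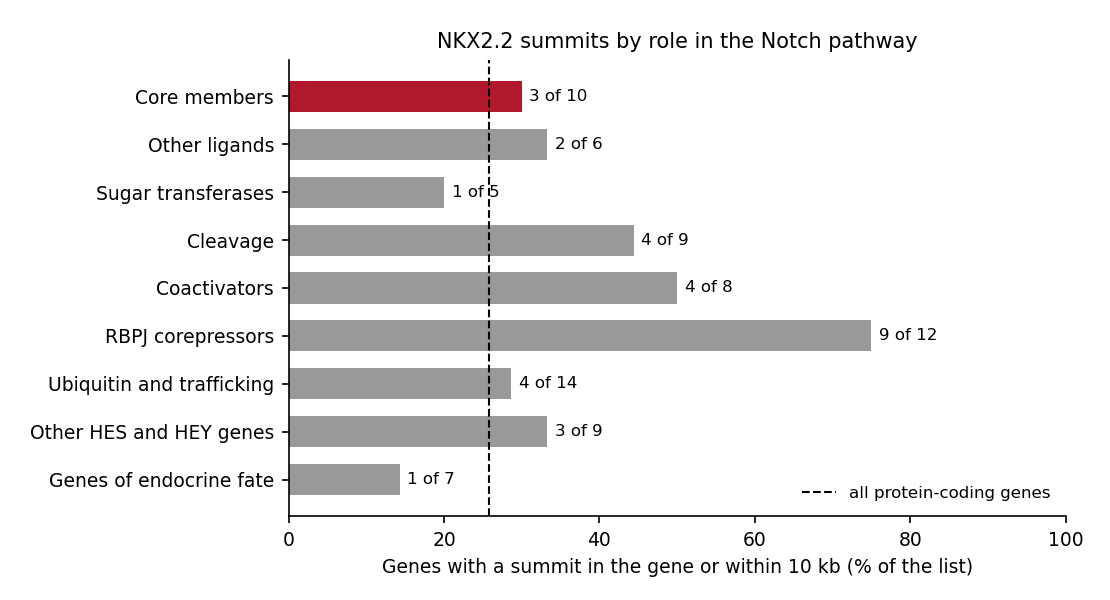
Share of genes with a summit in the gene or within 10 kb, for the Notch pathway genes (red) and for 8 lists of other genes linked to the pathway (grey), with counts beside the bars. The bar for other HES and HEY genes includes Nrarp. The dashed line marks all protein-coding genes at 25.8%: the members, at 3 of 10, lie near it and the corepressors, at 9 of 12, lie highest.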

How the data were processed

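NKX2.2 ChIP and input DNA of alphaTC6 cells were sequenced, with 2 libraries each. FastQC, Bowtie2, MACS2 and the build mm10 are named in the submitters' processing notes, without versions. The deposited scores are taken as the −log10 q-values that MACS2 writes to summit files. The lowest, 2.03, lies just above a q threshold of 0.01. Whether replicates were pooled and how duplicates were treated is not given in the sources used here. Positions count from 1 on GRCm38, which is mm10.

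Gene bodies came from a RefSeq table of GRCm38.p6, and start sites and strands from RefSeq promoter windows. All 80 list genes matched by symbol. Summits were counted in each gene body and within 10 and 50 kb, and the nearest gene was the one holding the summit or else with the nearest boundary. No hypothesis test was run, as the list has no replicates. Functions were tested on simulated data. The members and lists were chosen with earlier results of these data known. Named genes are all members and the 12 list genes with the highest-scoring summit within 10 kb, except that some list genes are counted but not reported singly here. Other names (Hes5, Tle2, and those under other observations) were chosen after their values were seen. Alternatives covered score minimum, merging, distance and assignment. Counting used pandas 2.3.3 and numpy 2.4.6 under Python 3.11.15, intervals scipy 1.17.1, and plots matplotlib 3.10.9.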

Additional observations from a re-analysis of the deposited data

How the results depend on the processing

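The count of members with a summit depended mainly on the distance. It was 3 within 10 kb, 8 within 50 kb and 9 within 100 kb, while the share of all protein-coding genes was 25.8%, 43.8% and 55.3%. The summits counted at the members went likewise from 4 to 12 and 17, since summits at neighbouring genes enter by construction. Among the 70 other pathway genes the count went from 28 to 48 within 50 kb and 58 within 100 kb, and to 18 in the gene body alone. Score minimums of 5 and 10, merging within 500 bp, a distance of 5 kb and assignment to the nearest gene kept these counts within 1.5 times. The members' count was 3 under each of them, but the share of all protein-coding genes moved. That share was 23.7% and 18.2% at score minimums of 5 and 10, and 25.8% after merging. At 5 kb it was 22.3%, with nearest-gene assignment 18.9%, and in the gene body alone 13.4%. Of 80 counts per single member, 64 stayed within 1.5 times and 16 did not, 15 of them at 50 or 100 kb and 1, Hes1, in the gene body alone. No paired analysis was possible because scores are given per peak and not per library, which also prevents leaving out a replicate. The windows of other size around summits were not run, as no genome was used here. As depth is unknown, a gene without a summit may only have lacked the reads for a call.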

Other observations

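Summits also stood at the start sites of genes for the enzyme that cuts Notch receptors. In the γ-secretase complex, Ncstn (nicastrin) had a summit 27 bases downstream of its start with a score of 9.04, Aph1b 1 base downstream of its start with a score of 7.18, and Aph1a 125 bases upstream of its start with a score of 5.73. All 3 scores were below the list's median of 13.7. In the 8 lists, 52 genes were in the promoter table and 5 had a summit in a promoter window, beside 5.62% of all genes in that table, these 3 together with Tle1 (215 bases upstream, score 12.1) and Neurod1 (178 bases upstream, score 6.04).

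Of 7 genes that set endocrine against progenitor or acinar fate, Neurod1 alone had a summit within 10 kb, beside 25.8% of all protein-coding genes and 17.3% of those under 10 kb, so the count is near the background. The nearest summit to Neurog3, the gene that HES1 represses, was 48.5 kb away, and Insm1 had its nearest at 17.2 kb. Sox9 and Ptf1a had none within 50 kb, with the nearest at 259 kb and 1053 kb. The Notch feedback gene Nrarp had its nearest at 28.2 kb and Hey1 at 834 kb.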
